A study of Mus musculus with 193 samples.

Results

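Transcripts of 39 genes that signal or repair DNA damage were followed in single mouse testis cells. The genes were chosen by name, and all 39 had a row in a table of 19557 genes. The cells, 193 in all, had been sorted from testes as positive for an Id4-eGFP reporter, which marks cells that express Id4, a gene of spermatogonial stem cells. There were 69 cells from postnatal day 3 (P3) labelled as knockout (KO) for the homeobox gene Rhox10, 53 wild-type (WT) cells from postnatal day 7 (P7) and 71 WT cells from P3, and all of them carried the reporter. Letters in the sample titles, which the labels do not explain, divide the cells labelled KO into set A with 21 cells, set B with 12 and set C with 36, the WT P7 cells into set A with 12 and set B with 41, and the WT P3 cells into set A with 16 and set B with 55. The labels name no strain, no animal and no Cre or deletion design for the knockout.

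The study's title concerns a transcription factor that helps to establish spermatogonial stem cells, and the design sets the cells labelled KO against WT cells of the same age, and WT cells of P7 against those of P3. No label ties cells to animals, so each group counts as 1 sample and no test was made. Values are given for every lettered set, and the only measure of repeat is the range of a difference over every pairing of 1 set from either group. Levels are means over cells of log2(RPM + 1), where RPM is reads per 1000000 reads, and a group's level is the unweighted mean of its sets. A gene was called higher or lower where its group levels differed by at least 0.5 on this scale with the same sign in every pair of sets, and where its mean level was at least 0.5. Both comparisons use the same WT P3 cells, so they are not independent of each other.

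Recovered totals ran between 251530 and 10663507 reads per cell. All deposited rows together took between 8.13% and 23.01% of them. These rows include the ERCC rows and the ribosomal precursor Rn45s, which were left out of the genes. The germ cell genes Ddx4 or Dazl reached 1 RPM in each of the 193 cells. Rhox10 itself had levels of 2.48, 2.62 and 0.83 in sets A, B and C labelled KO, 1.53 and 1.52 in the WT P7 sets and 1.78 and 1.49 in the WT P3 sets, so that it was lower than in WT P3 only in set C. The reads do not show which part of the gene they cover, and the word "labelled" is kept throughout. Set A labelled KO also stood apart. A score over 20 S phase genes averaged 2.89 ± 0.85 there (SD between 21 cells), against 5.09 and 5.19 in sets B and C labelled KO, 4.08 and 5.11 in the WT P7 sets and 4.0 and 4.71 in the WT P3 sets. A list of 5 stem cell markers averaged 1.55 in that set and between 3.52 and 3.77 in the other 6. A list of 5 Sertoli cell markers averaged 1.496, with none of the 5 at 0, while it averaged 0.32 and 0.33 in sets B and C labelled KO, 0 and 0.12 in WT P7 and 0.76 and 0.60 in WT P3. Of these 5 genes, Amh and Gata4 were at 0 in set B labelled KO, Gata4 in set C, all 5 in WT P7 set A, Amh in WT P7 set B and Gata4 in WT P3 set A. Other lists moved there too: 5 myoid or stromal markers averaged 0.74, against 0.06 to 0.43 in the other 6 sets, 4 endothelial markers 0.88, against 0.17 to 0.71, and 3 progenitor markers 3.32, against 4.42 to 5.32. Differences of the cells labelled KO are therefore given with and without set A.

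Damaged DNA is first sensed and signalled. The Mre11, Rad50 and Nbn complex binds broken ends and brings in the kinase Atm, single-stranded DNA at stalled forks brings in the kinase Atr, and Chek1 and Chek2 pass the signal on to the cell cycle. Breaks are then mended either by copying from the sister chromatid, the homologous recombination route of Brca1, Brca2 and Palb2, or by joining the ends directly with Xrcc5, Xrcc6, Xrcc4 and Lig4. Fanconi anaemia proteins unhook crosslinks between strands, mismatch repair corrects errors of replication, and translesion polymerases copy past damaged bases. Germ cells pass their genome on, and mice without Atm or without several of the Fanconi genes are short of germ cells.

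The start of a gene carries the elements through which the cell cycle acts on many repair genes, so stretches upstream of 5 members are shown, from RefSeq on GRCm38.p6. Brca1, Msh6 and Rad54l had the highest, and Atr the lowest, mean correlation with the S phase score among members whose stretch could be shown, and Fancm was added after its motif count was seen. Each stretch ends at the base before the RefSeq start site and runs 5′ to 3′ on the gene's own strand. Capitals mark an E2F motif on either strand or a CHR motif on either strand. The E2F motif was searched first as TTCGCGC, next with other inner letters as TTGGCGC, and last of all as TTCCCGC, and matches may overlap. The CHR motif was searched as TTTGAA alone. The Brca1 stretch is chr11:101551956-101552148 (minus strand), where an annotated neighbouring exon shortens it to 193 bases. The others have 250 bases: Msh6 chr17:87974800-87975049 (plus), Rad54l chr4:116123691-116123940 (minus), Atr chr9:95857347-95857596 (plus) and Fancm chr12:65075353-65075602 (plus).
Brca1: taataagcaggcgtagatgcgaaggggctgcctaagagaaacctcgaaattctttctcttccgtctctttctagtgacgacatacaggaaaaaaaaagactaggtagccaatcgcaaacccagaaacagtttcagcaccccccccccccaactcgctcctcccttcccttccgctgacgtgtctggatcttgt
Msh6: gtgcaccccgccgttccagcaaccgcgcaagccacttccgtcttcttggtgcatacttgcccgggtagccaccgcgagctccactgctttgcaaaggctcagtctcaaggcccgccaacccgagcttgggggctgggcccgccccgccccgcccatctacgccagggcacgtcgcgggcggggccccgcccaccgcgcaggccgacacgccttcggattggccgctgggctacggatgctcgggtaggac
Rad54l: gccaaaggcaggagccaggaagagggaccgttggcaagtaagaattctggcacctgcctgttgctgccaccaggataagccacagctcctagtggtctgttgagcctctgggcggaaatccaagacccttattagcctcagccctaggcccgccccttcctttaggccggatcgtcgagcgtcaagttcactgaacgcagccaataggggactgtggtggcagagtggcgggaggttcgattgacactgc
Atr: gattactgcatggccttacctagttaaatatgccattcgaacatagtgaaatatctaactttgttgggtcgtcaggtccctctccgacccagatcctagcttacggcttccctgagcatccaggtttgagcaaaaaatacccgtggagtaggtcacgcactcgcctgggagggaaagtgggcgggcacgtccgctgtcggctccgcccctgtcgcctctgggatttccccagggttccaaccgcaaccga
Fancm: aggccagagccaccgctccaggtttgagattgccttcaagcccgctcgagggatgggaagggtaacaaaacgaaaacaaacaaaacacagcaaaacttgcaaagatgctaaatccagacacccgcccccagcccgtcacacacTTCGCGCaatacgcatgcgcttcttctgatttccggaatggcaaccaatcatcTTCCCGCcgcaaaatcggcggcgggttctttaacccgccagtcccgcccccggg
The stretches of Brca1, Msh6, Rad54l and Atr held no match. That of Fancm held 2 E2F matches, which begin 107 and 54 bases before the start. Of the 31 members with a RefSeq promoter entry, 9 (29.03%) had an E2F match in the 250 bases before the start, namely Brca2, Chek2, Fancg, Fancm, Lig4, Msh3, Rad52, Xrcc4 and Xrcc6, against 6.84% of 27025 mouse promoters. The CHR motif was found in 1 of the 31, Polq (3.23%), against 16.3% of all promoters. These are matches of letters, not mapped binding sites. The mean correlation with the S phase score of the 9 members with an E2F match lay between 0.02 (Chek2) and 0.18 (Msh3). None of the members with an entry and a mean correlation above 0.2 had an E2F match. A link between motif and correlation was not tested. Rad50, Rad54b, Nbn, Fancd2, Xrcc2, Rev3l, Poli and Exo1 have no entry in the table used.

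The repair genes differed widely in level. The median cell had between 24 and 31 of the 39 members at 1 RPM or more, with the lowest median, 24, in set A labelled KO and the highest, 31, in set B labelled KO. Per kilobase of exon, Parp1, which senses single-strand breaks and adds poly(ADP-ribose), had the highest level in every group, with 17.6 RPM per kb in the cells labelled KO, 33.7 in WT P7 and 17.8 in WT P3. Xrcc6, the Ku70 subunit that caps broken ends, had 8.90 RPM per kb in the cells labelled KO, 12.7 in WT P7 and 8.79 in WT P3. Rad18 had 9.04 in the cells labelled KO, 10.2 in WT P7 and 5.19 in WT P3, and Rad50 had 8.18 in the cells labelled KO, 9.14 in WT P7 and 5.80 in WT P3. These 4 genes took the top 4 places in the cells labelled KO and in WT P7, while in WT P3 Chek1, with 5.68, stood above Rad18. At the other end stood Polh, the translesion polymerase that copies past ultraviolet damage, with 0.15 RPM per kb in the cells labelled KO, 0.18 in WT P7 and 0.20 in WT P3. Polh reached 1 RPM in 8 of 69 cells labelled KO, 5 of 53 WT P7 cells and 13 of 71 WT P3 cells, and it is the only member whose mean level was below 0.5. The other 38 members passed that minimum in both comparisons.

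**Figure D1:**
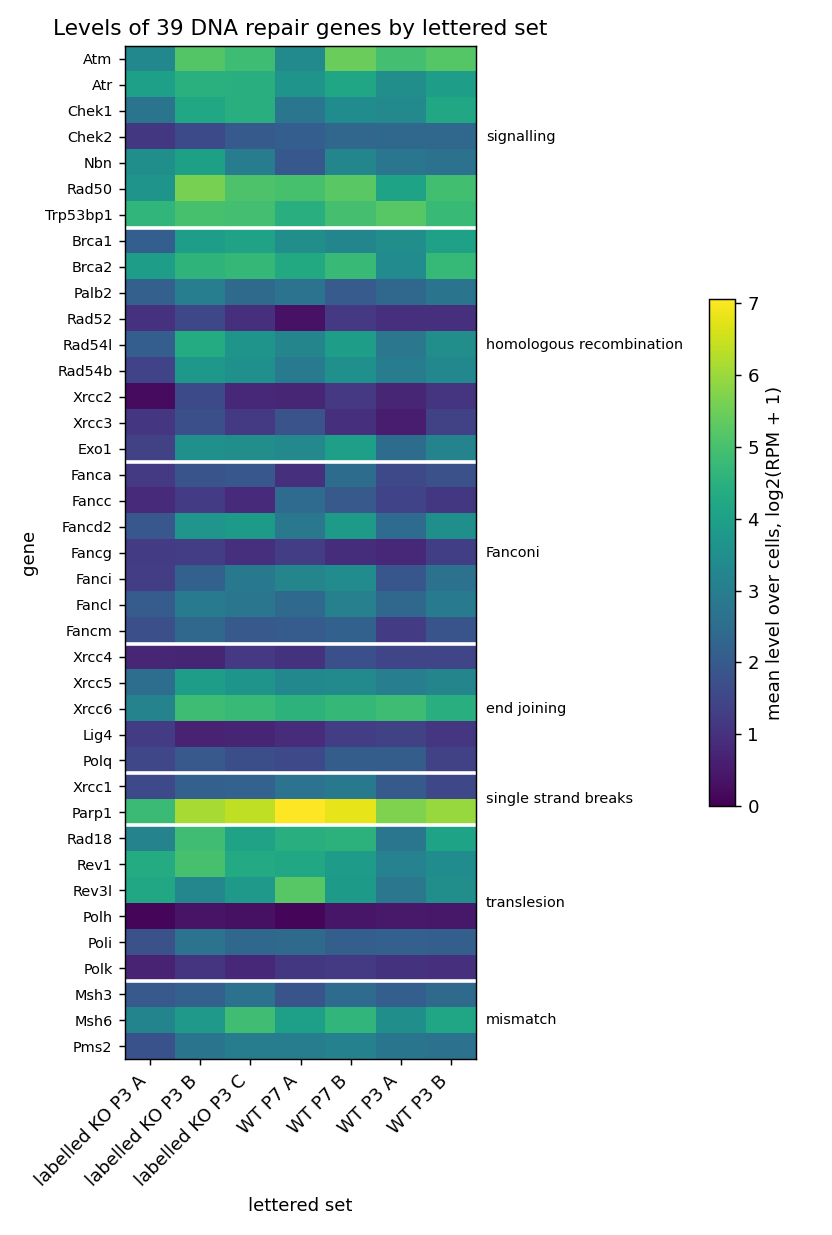
Mean level of each of the 39 members (rows, grouped by role) in the 7 lettered sets (columns), on the log2(RPM + 1) scale from dark (0) to yellow (7). Parp1 is the brightest row in every set, and the column of labelled KO set A is darker than those of sets B and C for 31 members.

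In the cells labelled KO, 3 of the 38 measured members were called higher than in WT P3 (Rev1, Nbn and Atr) and 2 lower (Chek2 and Xrcc4). These are 7.89% and 5.26% of the members, against 8.97% called higher and 2.78% called lower of all 10200 measured genes, and counts of 3 and 2 do not stand apart from that background. The median difference of the members was 0.01, against 0.12 for all measured genes. When levels were scaled to the reads on genes, 1 member was called higher and 3 lower, beside 3.89% and 7.17% of all genes. Scaled to genes detected in nearly all cells, the counts were again 1 and 3, beside 5.42% and 5.08%. Without set A, 11 members were called higher (28.9%), and of all 9983 genes then measured 19.4% were. The lower calls without set A were 3 (7.89%), beside 3.51% of all genes, and the members' median was 0.34 against 0.20 for all genes.

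The largest difference was that of Rev1, a translesion polymerase that inserts cytidine and holds the other translesion polymerases at a lesion. Rev1 had levels of 4.35, 5.004 and 4.31 in sets A, B and C labelled KO, against 3.13 and 3.42 in the A and B sets of WT P3. Levels in all 3 sets labelled KO lay above both WT P3 sets, as the call rule requires. The difference was 1.28, with pairs of sets between 0.89 and 1.87. It was 1.38 without set A. In mean RPM, Rev1 stood at 32.3 in the cells labelled KO and 13.3 in WT P3. Rev1 lies on chromosome 1 at 38052786-38129801 (mm10, minus strand), and its exons share 1240 bases with Eif5b on the opposite strand. Whether the counts used strand is not stated in the labels. The difference of Eif5b was 0.20, with pairs between -0.42 and 0.64, so it was not called. Rev1 was also the only member called higher after each of 2 other scalings, with 1.04 when levels were scaled to the reads on genes and 1.14 when scaled to genes detected in nearly all cells.

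The damage signalling genes gave the other higher calls, 2 of 7 genes, while 8.97% of all measured genes were called higher. With 7 genes, this count sets nothing apart. Nbn, the subunit that recruits Atm to a break, had levels of 3.51, 3.998 and 2.95 in sets A, B and C labelled KO, against 2.77 and 2.67 in WT P3. The set levels do not overlap, which the call rule requires, and set C lies only 0.19 above the nearer WT P3 set. Of all measured genes, 16.6% were higher in every pair of sets. The difference of Nbn was 0.77 (pairs 0.19 to 1.33). Atr, which answers to stalled replication forks, had 3.996, 4.48 and 4.44 in the sets labelled KO, against 3.47 and 3.95 in WT P3. Its nearest pair of sets differed by 0.05, and the difference of 0.59 (pairs 0.05 to 1.004) was 0.36 without WT P3 set A, below the minimum for a call. Without set A labelled KO the difference was 0.76 for Nbn and 0.75 for Atr. Neither call survived the scaling to reads on genes, where Nbn had 0.57 and Atr 0.35.

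Chek2, the effector kinase downstream of Atm, went the other way. Its levels were 1.13, 1.59 and 2.00 in sets A, B and C labelled KO, against 2.35 and 2.35 in WT P3. Levels in all sets labelled KO lay below both WT P3 sets, as the call rule requires. The difference was -0.78 (pairs -1.22 to -0.35), or -0.56 without set A. Chek2 reached 1 RPM in 38 of 69 cells labelled KO (55.1%, exact 95% interval 42.6 to 67.1%), against 57 of 71 WT P3 cells (80.3%, 69.1 to 88.8%). These intervals cover counting error only, over cells pooled from the sets, and do not compare the groups. The 69 cells include those of set A, where the level of Chek2 was lowest. With every cell thinned to 1000000 reads, which leaves out 5 shallower cells, all of them WT P3, the shares with a read were 66.7% of 69 and 90.9% of 66 cells. Chek2 kept its call under both scalings, at -0.96 and -0.89.

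The remaining signalling genes showed no call with all sets. Chek1, the effector of Atr, had levels of 2.73, 4.20 and 4.44 in sets A, B and C labelled KO, against 3.33 and 4.20 in WT P3, a difference of 0.02 with all sets and 0.56 without set A. Rad50 had 3.64, 5.61 and 5.09 in the sets labelled KO, against 4.08 and 4.93 in WT P3, a difference of 0.28 that became 0.85 without set A. Without that set both were called higher. Atm had 3.29, 5.16 and 4.88 in the sets labelled KO, against 4.95 and 5.21 in WT P3. Its difference of -0.64 rested on set A, was -0.06 without it, and became a call for lower when levels were scaled to the reads on genes (-0.91) or to stably detected genes (-0.80). Trp53bp1, which keeps broken ends from being cut back, differed by -0.12, or -0.01 without set A. It shares 2130 exon bases with Tubgcp4 on the other strand, a gene that was itself called higher, by 0.72.

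Among the end joining genes, Xrcc4, the scaffold that holds Lig4 at the break, was called lower. Its levels were 0.74, 0.74 and 1.17 in the sets labelled KO, against 1.48 and 1.48 in WT P3, and the difference was -0.59 (pairs -0.74 to -0.31), or -0.52 without set A. Xrcc4 reached 1 RPM in 23 of 69 cells labelled KO (33.3%, 22.4 to 45.7%). In WT P3 it did so in 35 of 71 cells (49.3%, 37.2 to 61.4%). These intervals too cover counting error only, over cells pooled from the sets, and do not compare the groups. Lig4, the ligase itself, had 1.24, 0.71 and 0.74 in sets A, B and C labelled KO, against 1.36 and 1.12 in WT P3. It differed by -0.35 with all sets and was called lower without set A, at -0.52. Xrcc5, the Ku80 subunit, had 2.56, 3.94 and 3.67 in the sets labelled KO, against 3.01 and 3.21 in WT P3, and was called higher without set A, at 0.70. Xrcc6 differed by -0.39 and by 0.16 without set A. Polq, the polymerase of microhomology joining, differed by less than 0.01 with all sets and by 0.11 without set A.

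None of the 9 homologous recombination genes was called with all sets, and their differences lay between -0.37 for Brca1 and 0.37 for Xrcc3. The ranges over pairs were wide, between -1.92 and 0.59 for Brca1 and between -1.80 and 1.05 for the exonuclease Exo1, and for both genes set A labelled KO lay below all other sets. Without set A, all 9 had differences above 0, as had 70.0% of all measured genes. The helicase-like genes Rad54l and Rad54b were then called higher at 0.86 and 0.53, as was Exo1 at 0.69. Xrcc2 and Xrcc3, which act in strand exchange, differed by -0.04 and 0.37 with all sets and by 0.28 and 0.49 without set A. Brca2 differed by 0.36 and by 0.59 without set A, its partner Palb2 by 0.01 and 0.20, Rad52 by 0.20 and 0.29, and Brca1 by 0.26 without set A. Rad54b and Fsbp share 2068 exon bases on the same strand, and Fsbp had a level of 0.09 in the cells labelled KO and 0.10 in WT P3.

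The 7 Fanconi genes had no call with all sets either. Fancd2, which is ubiquitinated together with its partner Fanci at a crosslink, had levels of 1.93, 3.68 and 3.85 in sets A, B and C labelled KO, against 2.48 and 3.51 in WT P3. The difference was 0.15 with all sets and 0.76 without set A. Fancm, the translocase that brings the complex to DNA, had 1.72, 2.37 and 1.98 in the sets labelled KO, against 1.22 and 1.85 in WT P3, a difference of 0.49 that became a call at 0.65 without set A. Fancl, the ubiquitin ligase of the complex, differed by -0.04 with all sets and by 0.22 without set A. The same 2 values were -0.16 and 0.25 for Fanci, -0.31 and -0.25 for Fancc, and 0.10 and 0.06 for Fancg. Fanca differed by less than 0.01 with all sets and by 0.23 without set A. No mismatch, single-strand break or other translesion gene was called with or without set A. Msh6, Msh3 and Pms2 differed by 0.14, -0.01 and -0.19 with all sets, and by 0.53, 0.13 and 0.17 without set A. Xrcc1 and Parp1 differed by 0.22 and -0.06 with all sets, and by 0.43 and 0.42 without it. Rad18, Rev3l, Poli and Polk differed by 0.60, 0.63, 0.13 and -0.13 with all sets, and by 1.04, 0.40, 0.39 and -0.06 without it. Rad18, the ubiquitin ligase that marks PCNA at a stalled fork, spread most of the translesion genes, between 3.16 in set A and 4.88 in set B labelled KO.

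**Figure D2:**
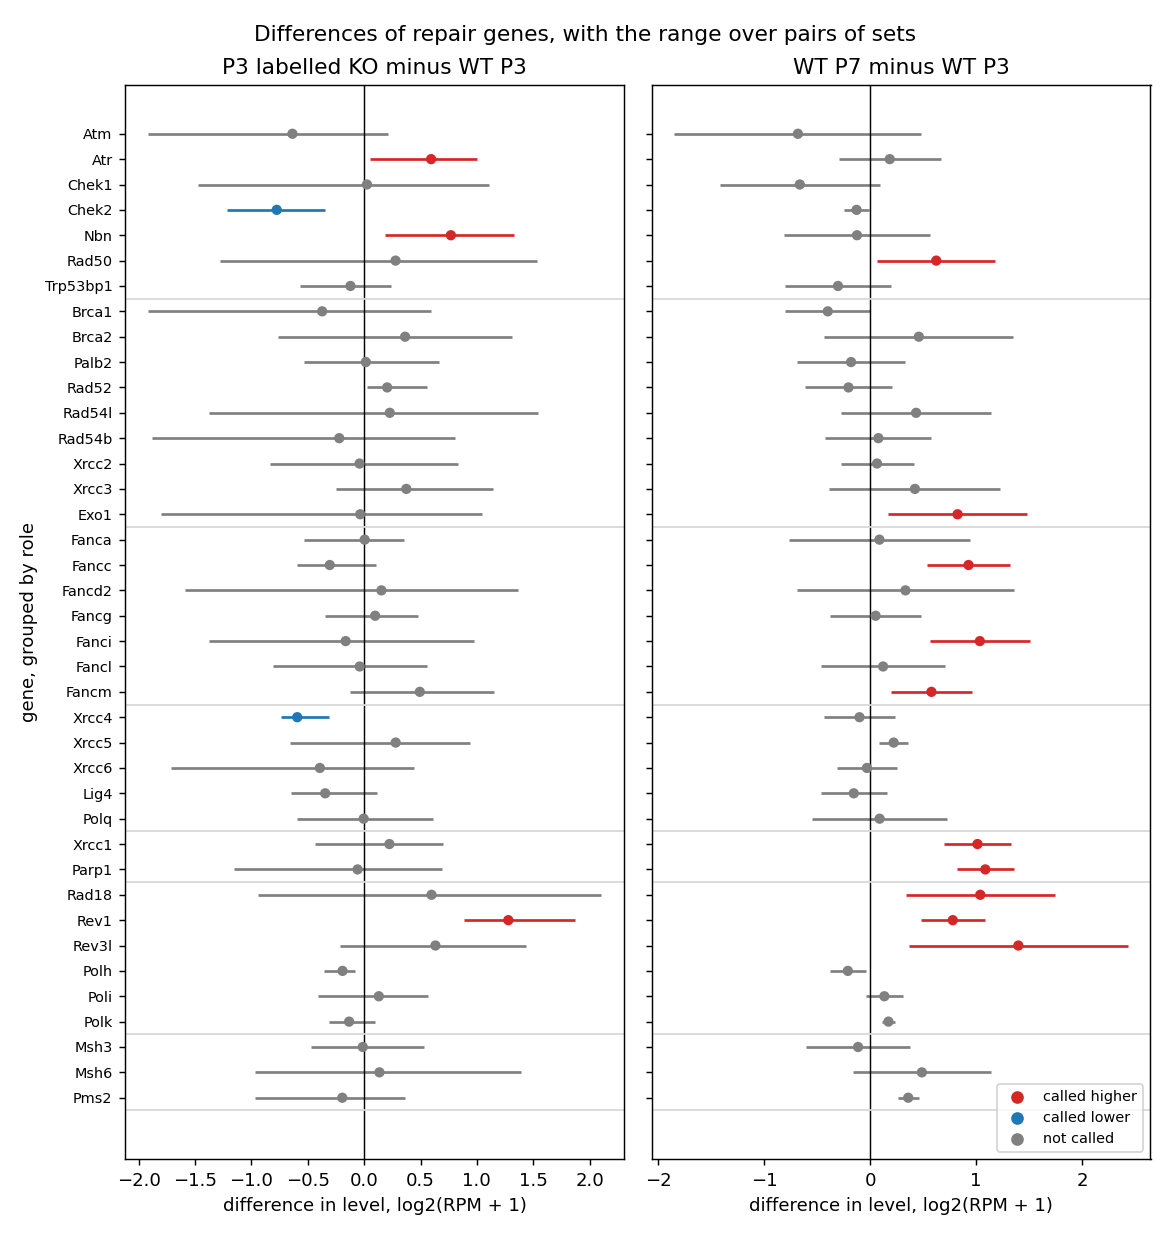
Difference in level (log2 scale, points) for each member with the range over pairs of sets (lines), for P3 cells labelled KO minus WT P3 on the left and WT P7 minus WT P3 on the right. Members called higher are red (3 left, 10 right), those called lower blue (2 left, none right), and grey lines mostly cross 0.

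In WT P7 cells, 10 of the 38 measured members were called higher than in WT P3 and none lower. These are 26.3% and 0% of the members, against 21.6% called higher and 11.1% called lower of all 9659 measured genes, and the members' median difference was 0.15 against 0.10 for all genes. The counts depended on scaling. When levels were scaled to the reads on genes, which moves the median of all genes to -0.14, 4 members stayed higher (Fancc, Fanci, Xrcc1 and Parp1) and 3 became lower (Brca1, Chek1 and Trp53bp1), beside a background of 9.27% higher and 21.6% lower. The same 4 and 3 genes were called when levels were scaled to stably detected genes, beside 10.8% higher and 19% lower of all genes.

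Both members with a role in single-strand break repair were called higher, while 21.6% of all measured genes were. With 2 genes, this count sets nothing apart. Parp1 had levels of 7.06 and 6.78 in WT P7 sets A and B, against 5.70 and 5.97 in the 2 sets of WT P3. The difference was 1.09 (pairs 0.82 to 1.36), and it was 0.65 and 0.73 under the 2 other scalings. Xrcc1, the scaffold that Parp1 activity brings to a nick, had 2.69 and 2.85 in WT P7, against 2.00 and 1.52 in WT P3, a difference of 1.01 (pairs 0.70 to 1.33). For both genes the WT P7 set levels lay above the WT P3 set levels, as the call rule requires. In mean RPM, Parp1 stood at 131 in WT P7 and 68.9 in WT P3. Xrcc1 reached 1 RPM in 42 of 53 WT P7 cells (79.2%, exact 95% interval 65.9 to 89.2%), against 43 of 71 WT P3 cells (60.6%, 48.3 to 72.0%). The intervals again cover counting error only, over cells pooled from the sets, and do not compare the groups. Thinned to 1000000 reads, the shares of cells with an Xrcc1 read were 84.9% of 53 and 71.2% of 66.

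Of the 5 measured translesion genes, 3 were called higher, while 21.6% of all measured genes were. With 5 genes, this count sets nothing apart, and none of the 3 stayed called under either scaling. Rev3l, the catalytic subunit of polymerase zeta that extends past lesions, had 5.24 and 3.85 in WT P7 sets A and B, against 2.80 and 3.49 in WT P3. Its difference of 1.40 (pairs 0.37 to 2.43) was the largest of any member but came mostly from set A, and it was 0.71 without WT P7 set A. Rad18 had 4.44 and 4.52 in WT P7, against 2.78 and 4.10 in WT P3. The difference of 1.04 was 0.38 without WT P3 set A, below the minimum for a call, and 1.70 without WT P3 set B. Rev1 had 4.21 and 3.91 in WT P7, against 3.13 and 3.42 in WT P3, a difference of 0.78 (pairs 0.48 to 1.08) that fell below the minimum under both scalings, at 0.40 and 0.47. Eif5b, which shares exon bases with Rev1, was called higher as well, by 0.70. Polk and Poli differed by 0.17 and 0.13.

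Of the Fanconi genes, 3 of 7 were called higher, and all 7 differences were above 0, while of all measured genes 21.6% were called higher and 58.0% lay above 0. With 7 genes, these counts set nothing apart. Fanci had 3.22 and 3.40 in WT P7, against 1.89 and 2.66 in WT P3, a difference of 1.04 (pairs 0.56 to 1.51) that was 0.65 without WT P3 set A. Fancc, a core complex subunit, had 2.46 and 1.97 in WT P7, against 1.43 and 1.14 in WT P3, a difference of 0.93 (pairs 0.54 to 1.32). In both cases the WT P7 set levels lay above both WT P3 set levels, as the call rule requires. Of all measured genes, 32.9% were higher in every pair of sets. Fancm had 2.04 and 2.18 in WT P7, against 1.22 and 1.85 in WT P3, and its difference of 0.58 was 0.27 without WT P3 set A and 0.89 without WT P3 set B. Fanci shares 665 exon bases with Polg on the other strand, and Polg differed by 0.20 without a call. Fancd2, Fancl, Fanca and Fancg differed by 0.33, 0.12, 0.09 and 0.05, each with pairs on both sides of 0.

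The 9 recombination and 7 signalling genes gave 1 higher call each (11.1% and 14.3%), against 21.6% of all measured genes. Exo1, which cuts back the end of a break, had 3.32 and 3.99 in WT P7, against 2.50 and 3.15 in WT P3. The difference of 0.83 (pairs 0.17 to 1.48) was 0.50 without WT P3 set A and 0.49 without WT P7 set B. Rad50 had 4.996 and 5.26 in WT P7, against 4.08 and 4.93 in WT P3, and its difference of 0.62 was 0.20 without WT P3 set A, 1.05 without WT P3 set B and 0.49 without WT P7 set B. Brca1 had 3.49 and 3.23 in WT P7, against 3.49 and 4.03 in WT P3, so that the set A levels of both ages were equal and set B was lower in WT P7, with a difference of -0.40. Chek1 had 2.78 and 3.42 in WT P7, against 3.33 and 4.20 in WT P3, a difference of -0.66 with 1 pair of sets on the other side of 0. Under the scaling to reads on genes these differences were -0.76 for Brca1, -1.04 for Chek1 and -0.72 for Trp53bp1.

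The other recombination genes differed by amounts within the spread between sets: Brca2 by 0.46, Rad54l by 0.43, Xrcc3 by 0.42, Rad54b by 0.08, Xrcc2 by 0.07, Palb2 by -0.18 and Rad52 by -0.20. Of the signalling genes, Atm differed by -0.68, with levels of 3.36 and 5.44 in WT P7 sets A and B and pairs between -1.85 and 0.48. Set A labelled KO (3.29) and WT P7 set A (3.36) had the lowest Atm levels of the 7 sets, and the other 5 lay between 4.88 and 5.44. Atr, Nbn, Chek2 and Trp53bp1 differed by 0.19, -0.12, -0.13 and -0.30. No end joining gene was called: Xrcc5 differed by 0.22, Polq by 0.09, Xrcc6 by -0.03, Xrcc4 by -0.10 and Lig4 by -0.15. The mismatch genes Msh6, Pms2 and Msh3, which recognise and process mispaired bases, differed by 0.49, 0.36 and -0.11.

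**Figure D3:**
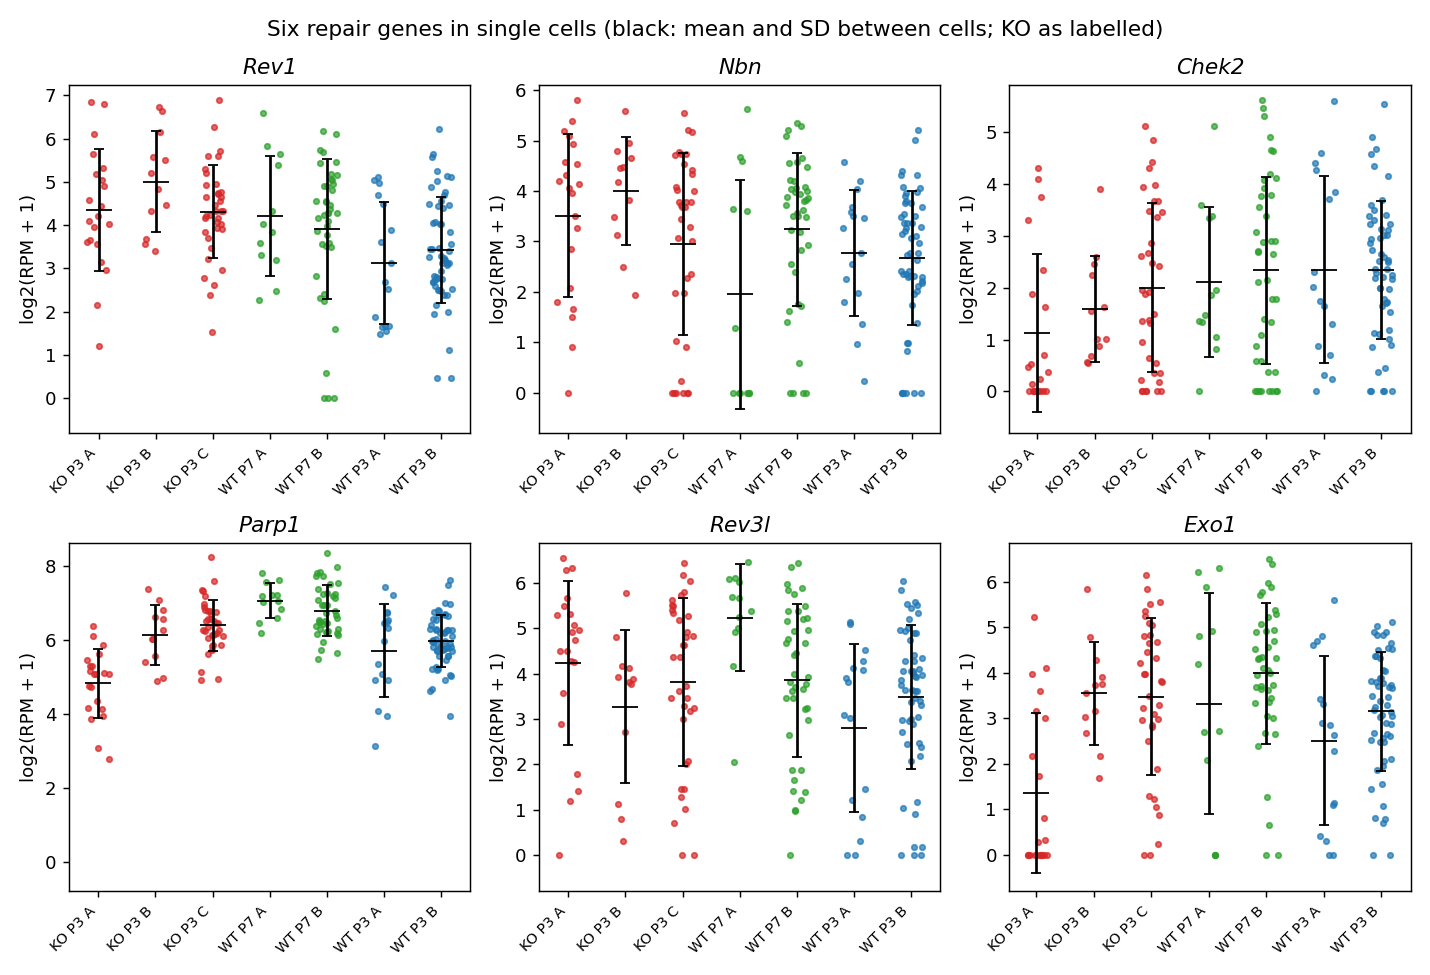
Levels of 6 members in each cell (points, log2 scale) by lettered set, with the mean and SD between cells in black: Rev1, Nbn and Chek2 in the top row, Parp1, Rev3l and Exo1 in the bottom row. Parp1 forms narrow clouds that are highest in WT P7, while Nbn, Chek2, Rev3l and Exo1 each include cells at 0 in most sets.

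Cells within a set varied by more than the groups differed for most members. Parp1 was the steadiest, with SDs between cells of 0.48 to 1.26 over the 7 sets. Rev1 had SDs of 1.08 to 1.62, and Chek2 had 1.03 to 1.81. Exo1 had 1.13 to 2.43, the widest in WT P7 set A, where its 12 cells held both cells at 0 and cells near the top of the range.

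Set A labelled KO had low levels across most of the members. Its level lay below the mean of sets B and C labelled KO for 35 of the 39 (89.7%) and below both sets for 31 (79.5%), against 64.5% and 52.04% of 9989 measured genes. For 19 members (48.7%) it was the lowest of all 7 sets, against 28.8% of those genes. The median of set A minus the mean of sets B and C was -0.67 over the members and -0.24 over all genes. The largest were in recombination and crosslink genes: Rad54b had 1.41 in set A, against a mean of 3.65 in sets B and C, a difference of -2.24. Exo1 differed by -2.16, Brca1 by -1.91, Rad54l by -1.90 and Fancd2 by -1.84. The 4 exceptions were Rev3l (0.69 higher in set A), Lig4 (0.51), Fancg (0.10) and Nbn (0.04). The low S phase score, the low stem cell and progenitor markers and the raised Sertoli, myoid or stromal and endothelial markers of set A, given above, move with these values, and their part in the result was not tested. A score over 19 G2/M genes was also lowest there, at 1.59 against 3.80 and 4.35 in sets B and C.

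How far each member follows the S phase score from cell to cell was described by Pearson's r within each set, over 12 to 55 cells, averaged over the 7 sets. None of the 20 S phase genes is a member. Cells of a set share their preparation, and both axes are affected by depth and by dropout of low genes. The median over the 39 members was 0.16, with 35 above 0 and 15 above 0.2. The same counts over all genes are not given here, so these counts do not set the members apart. Brca1 had the highest mean r, 0.48, and was positive in all 7 sets, between 0.25 and 0.72. Exo1 followed with 0.40, Msh6 with 0.38, Rad54l and Fanca with 0.33 and Chek1 with 0.31. Exo1, Msh6 and Chek1 were positive in 7 of 7 sets, Rad54l and Fanca in 6. By role, the median r was 0.26 for homologous recombination, 0.20 for single-strand breaks, 0.18 for both the Fanconi and the mismatch genes, 0.14 for signalling, 0.12 for end joining and 0.05 for translesion genes. Polk (-0.12), Atr (-0.05), Xrcc2 (-0.04) and Pms2 (-0.03) lay below 0. With total reads in place of the score the median was -0.02, and with the G2/M score it was 0.08. Fancd2 had the highest r with the G2/M score, 0.34, and Parp1 the highest with total reads, 0.31.

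**Figure D4:**
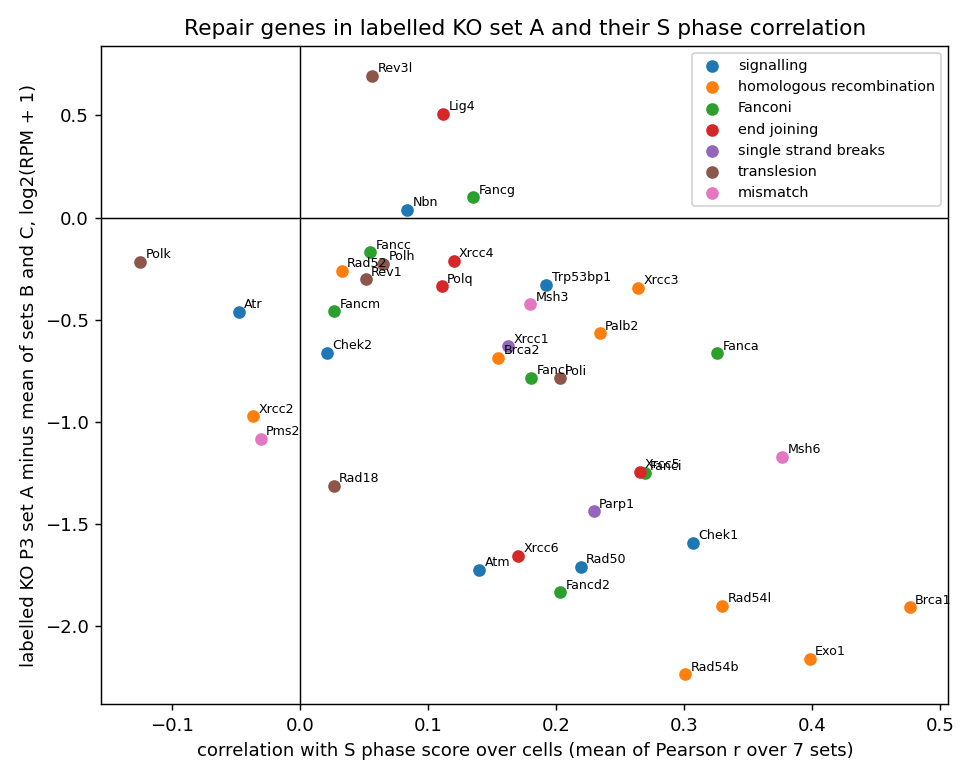
Each point is a member, coloured by role, placed by its mean correlation with the S phase score within sets (x) and by its level in labelled KO set A minus the mean of labelled KO sets B and C (y, log2 scale). Brca1, Exo1, Rad54l and Rad54b lie at the lower right, and Rev3l and Lig4 at the top, near an r of 0.1.

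Across the 39 members, those that followed the S phase score more closely were lower in set A labelled KO, with Pearson's r of -0.57 and Spearman's rho of -0.57 between the 2 quantities. This is a correlation across genes, which are not independent replicates, and set A is itself 1 of the 7 sets in which r was measured. Some low genes, such as Polh (r 0.07, difference -0.23) and Rad52 (0.03 and -0.26), had small values on both axes. Others did not, such as Xrcc2 (-0.04 and -0.97), Xrcc3 (0.26 and -0.34) and Lig4 (0.11 and 0.51). The part of level in the correlation was not tested. Among the members themselves, correlation within sets was weak: over 741 pairs the median of the mean r was 0.04. The highest pair was Brca1 and Exo1 with 0.35, positive in all 7 sets, followed by Palb2 and Exo1 with 0.29, also positive in all 7.

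Outside the 39, a list of other repair genes had 64 members in the table, of which 59 were measured in each comparison with all sets. In the cells labelled KO, 3 of the 59 were called higher and 3 lower, which is 5.08% in each direction against 8.97% and 2.78% of all genes, with a median difference of 0.12 in the list and over all genes. Without set A, 17 of 58 were called higher (29.3%) and 2 lower (3.45%), against 19.4% and 3.51% of all genes, with a median of 0.34 in the list and 0.20 over all genes. Ube2b, the ubiquitin-conjugating partner of Rad18, had levels of 6.55, 6.33 and 6.10 in the sets labelled KO, against 5.73 and 5.70 in WT P3, a difference of 0.61 that was 0.4986 without set A, just below the minimum for a call. Fancb and Ercc6 were the other higher calls, at 0.64 and 0.58. Without set A, Ercc6 had 0.54 and was still called, while Fancb had 0.36 and was not. The helicase Blm and the fork remodeller Hltf were called lower, at -0.60 and -0.52. Without set A, Hltf had -0.55 and was still called, while Blm had -0.18 and was not. In WT P7, 16 of the 59 were called higher (27.1%) and 4 lower (6.78%), against 21.6% and 11.1% of all genes. Prkdc, the kinase that Ku recruits in end joining, had 4.35 and 3.77 in WT P7, against 2.27 and 2.44 in WT P3, a difference of 1.70. Hus1, a clamp subunit that helps to activate Atr, differed by 1.31 (pairs 0.86 to 1.76). Pms1 differed by 1.14 (pairs 0.22 to 2.07), with 1.55 and 3.07 in the WT P3 sets. The histone gene H2afx differed by 1.09 (pairs 0.60 to 1.57) and was low in the WT P3 sets, at 0.28 and 0.53. Calls of this list under the other scalings are not given here. The lower calls were Hltf at -1.13, Lig3, the ligase that works with Xrcc1, at -1.03, Mad2l2, the partner of Rev3l in polymerase zeta, at -0.53 and Rad23b at -0.50.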

How the data were processed

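Single cells were lysed on the Fluidigm C1 system, cDNA was made with a SMARTer kit, and libraries were Nextera XT, per the labels' protocols. Per the submitters' processing notes, the tools were STAR 2.3.0 and HTSeq 0.6.1 with build mm10. Not given in the sources used here: which annotation was used, whether counting used strand, and how reads with several alignments were handled. The deposited values are named TPM but are RPM: in every cell at least 99.99% of them were whole multiples of 1 read (tolerance 0.001 RPM), with no length term. Reads recovered this way served only for depth and thinning. A count test was not run, since no group has replicate samples.

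Of 19642 rows, 84 ERCC rows and the ribosomal precursor Rn45s were left out. Levels are means of log2(RPM + 1), with a pseudocount of 1, which understates changes of low genes. Exon lengths, positions and overlaps came from GENCODE vM21 (GRCm38, the assembly of mm10). Promoter stretches came from RefSeq on GRCm38.p6. They were ended where an annotated UTR on either strand begins, and shown only where at least 100 bases remained. The text names all 39 members and up to 4 highest and 4 lowest called genes of the other repair list, of which 1 is not reported here, and stretches of the 3 members with the highest and the 1 with the lowest S phase correlation. Members and lists were chosen with earlier results of these data known. Calculations used Python 3.11.15, numpy 2.4.6, pandas 2.3.3 and scipy 1.17.1. The call rule was tried on simulated data without differences between the sets of a group. The real sets do differ, so that trial does not show how the rule performs here. Alternatives were the pseudocount, the filter, the scaling, thinning, weighting and each set left out.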

Additional observations from a re-analysis of the deposited data

How the results depend on the processing

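For the cells labelled KO against WT P3, the 3 higher calls became 1 with a pseudocount of 0.1 or 10. They also became 1 with either other scaling and with a minimum difference of 1, and 6 with RPM averaged before the logarithm. Of all genes, 8.97% were called higher in the main setting, and 11.8% and 1.46% with pseudocounts of 0.1 and 10. The share was 3.89% scaled to reads on genes and 5.42% scaled to stably detected genes. It was 0.88% with a minimum difference of 1 and 16.6% with RPM averaged first. The 2 lower calls became 0 with a pseudocount of 10, a mean level of at least 2 or a minimum difference of 1. Of all genes, 0.24%, 2.66% and 0.45% were then called lower, beside 2.78% in the main setting. Leaving out 1 set at a time gave 2 to 11 higher calls (11 without KO set A, 8 without WT P3 set B). It also gave 2 to 3 lower calls and medians of -0.16 to 0.34. Of all genes, 8.59% to 19.4% were then called higher (19.4% without KO set A, 14.7% without WT P3 set B). The lower calls were 3.51% to 7.61% of all genes. For WT P7 against WT P3, the 10 higher calls became 6 with a pseudocount of 10 and 4 with either scaling. They became 17 with RPM averaged first and 5 with a minimum difference of 1. Of all genes, 21.6% were called higher in the main setting and 8.53% with a pseudocount of 10. The share was 9.27% scaled to reads on genes and 10.8% scaled to stably detected genes. It was 37.7% with RPM averaged first and 5.60% with a minimum difference of 1. The 0 lower calls became 1 with a pseudocount of 0.1, after thinning, with RPM averaged first and with no minimum difference. They became 3 with either scaling. The lower calls among all genes were 11.1% in the main setting, 21.5% with a pseudocount of 0.1 and 11.3% after thinning. They were 6.53% with RPM averaged first and 18.7% with no minimum difference. Scaled to reads on genes they were 21.6%, and scaled to stably detected genes 19%. The median of 0.15 became -0.12 when scaled to reads on genes, -0.087 when scaled to stably detected genes and 0.44 with RPM averaged first. Leaving out 1 set at a time gave 7 to 16 higher calls (16 without WT P7 set A). It also gave 1 to 6 lower calls (6 without WT P7 set B) and medians of 0.0085 to 0.41. Of all genes, 23.2% to 27.9% were then called higher (27.9% without WT P7 set A). The lower calls were 10.4% to 21.6% of all genes (21.6% without WT P7 set B). The median S phase correlation of 0.16 became -0.016 with total reads and 0.083 with the G2/M score in its place. The cause of these changes was not tested. Of 200 differences of called genes under the alternatives, 184 moved by less than the spread between pairs of sets, 16 by more, and none changed sign. Part of this was fixed by the call rule. Called genes have the same sign in every pair, so leaving out a set or weighting cells equally cannot change it. Changes of the filter leave the difference as it is. Only the pseudocounts, scalings, thinning and averaging of RPM could have changed a sign. Scaling moved the median difference of all genes for the cells labelled KO from 0.12 to -0.03 (reads on genes) or 0.04 (stably detected genes), and for WT P7 from 0.10 to -0.14 or -0.10. No paired analysis was possible because the results come from no test and the labels do not say that the letters pair the sets. Depth limits low genes such as Polh most.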
